A study of Mus musculus with 9 samples.

Results

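Transcripts of 10 cyclins and cyclin-dependent kinases (CDKs) were followed in mouse splenic B cells before and after activation, in mice with an intact or a floxed gene for the lactate transporter Mct1. The members were chosen by name, as the rows for Ccnd2, Ccnd3, Ccne1, Ccne2, Ccna2, Ccnb1, Ccnb2, Cdk2, Cdk4 and Cdk6, and all 10 were found among the 17596 genes of the deposited table. The control group on day 0 held 2 libraries of naïve B cells from Mb1Cre mice, in which Cre is expressed throughout the B cell lineage. The second day 0 group held 2 libraries from Mct1f/fMb1Cre mice, which carry the same Cre and a floxed Mct1 gene. The day 3 groups held 2 Mb1Cre libraries and 3 Mct1f/fMb1Cre libraries from B cells cultured for 3 days with 10 μg/mL lipopolysaccharide (LPS) and 50 ng/mL IL-4. Both genotypes therefore carried Mb1-Cre, the mice were 6 to 8 weeks old by the study's methods, and no label tied a library to a mouse or a litter, so that p-values measure only the spread between these libraries.

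Cyclins are the regulatory subunits of CDKs, and each acts in a window of the cell cycle. D-type cyclins with Cdk4 or Cdk6 respond to mitogens and start the phosphorylation of the retinoblastoma protein, cyclin E with Cdk2 brings cells into S phase, cyclin A2 acts in S phase and G2, and B-type cyclins with Cdk1 drive mitosis. Naïve B cells are quiescent, and LPS with IL-4 makes them enter the cycle and divide. Among the D-type cyclins, cyclin D2 is the one induced through the B cell receptor and Toll-like receptors, and cyclin D3 is best known for the expansion of pre-B and germinal centre B cells.

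Promoter windows from RefSeq (GRCm38.p6), reaching from 250 bases before a gene's start to 50 bases after it, were available for 7 of the 10 members. These 4 are shown because they include the B-type cyclins, which rose together on activation, Cdk4, which also rose, and Cdk2, which changed little. Capitals mark CCAAT boxes (CCAAT), the cell cycle homology region (TTTGAA), E2F sites (TTTCGCGC, TTTGGCGC, TTTCCCGC or TTTGCCGC) and E-boxes (CACGTG), searched on both strands. No stretch had motifs that overlapped each other. Each sequence is written 5′ to 3′ on the gene's own strand.
Ccnb1, chr13:100786487-100786646, minus strand: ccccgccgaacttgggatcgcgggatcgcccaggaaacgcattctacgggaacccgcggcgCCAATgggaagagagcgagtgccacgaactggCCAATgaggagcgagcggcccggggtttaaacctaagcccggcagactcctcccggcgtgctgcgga
Ccnb2, chr9:70421545-70421714, minus strand: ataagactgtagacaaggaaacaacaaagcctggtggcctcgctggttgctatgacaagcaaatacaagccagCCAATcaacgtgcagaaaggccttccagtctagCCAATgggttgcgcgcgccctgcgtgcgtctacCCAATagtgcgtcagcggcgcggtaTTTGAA
Cdk2, chr10:128705052-128705206, minus strand: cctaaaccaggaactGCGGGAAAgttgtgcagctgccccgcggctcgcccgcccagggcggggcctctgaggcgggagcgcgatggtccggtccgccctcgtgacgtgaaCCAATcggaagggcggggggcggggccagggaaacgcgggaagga
Cdk4, chr10:127063355-127063534, plus strand: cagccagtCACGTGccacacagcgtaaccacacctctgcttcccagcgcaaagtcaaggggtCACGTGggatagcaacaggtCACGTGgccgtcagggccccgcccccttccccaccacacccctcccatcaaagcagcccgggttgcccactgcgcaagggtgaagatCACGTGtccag

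The Ccnb1 window held 2 CCAAT boxes, starting 99 and 67 bases before the start, and the Ccnb2 window held 3, starting 87, 54 and 21 bases before it. Ccnb2 also had a cell cycle homology region from base 5 to base 10 after its start, and a second one 167 bases before it that lies outside the stretch shown. Cdk4 carried 4 E-boxes and Cdk2 carried 1 E2F site, read on the opposite strand, and 1 CCAAT box. A CCAAT box was present in windows of 4 of the 7 members (Ccnd3, Ccnb1, Ccnb2 and Cdk2) and in 37.4% of all 32851 windows. The cell cycle homology region was found in 1 member and in 17.9% of all windows, an E2F site in 1 member and in 2.26%, and an E-box in 2 members, Cdk4 and Cdk6, and in 7.15%. These matches describe the letters of the windows and were not tested as binding sites.

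Values are FPKM, read fragments scaled to transcript length and to the mapped fragments of a library, deposited with 2 decimals and without read counts, so the sequencing depth is unknown and no counting error can be given. FPKM values are scaled to transcript length, so levels of different genes can be set side by side. Library totals on day 0 were 477079 and 488428 FPKM for Mb1Cre and 482112 and 491459 FPKM for Mct1f/fMb1Cre. On day 3 the totals were 563586 and 547778 in Mb1Cre and 547355, 557679 and 547725 in Mct1f/fMb1Cre libraries. Mct1 itself, listed as Slc16a1, was at 22.58 and 22.95 FPKM in Mb1Cre and at 10.82, 9.81 and 9.50 FPKM in Mct1f/fMb1Cre libraries on day 3, a called decrease of 1.11 on the log2 scale (SE 0.0712, adjusted p = 9.07e-06). On day 0 it was at 4.33 and 3.80 FPKM in Mb1Cre and at 3.71 and 4.06 FPKM in Mct1f/fMb1Cre libraries, so the genotypes overlapped and the gene's level did not check the day 0 labels.

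The day 0 libraries also carried RNA of other cells. The 9 myeloid markers, with the lysozyme gene Lyz2 as the most abundant, summed to 1035, 1230, 1871 and 1125 FPKM in the 4 day 0 libraries (Mb1Cre replicates 1 and 2, then Mct1f/fMb1Cre replicates 1 and 2) and to between 15.66 and 26.18 FPKM on day 3. The 7 erythroid markers, led by Hba-a1, summed to between 127.6 and 234.1 FPKM on day 0 and between 4.38 and 8.13 FPKM on day 3. Hbb-bs was then listed at 0 in every library, and most of the sum was Hbb-bt. Hbb-bt was at 7.30 to 19.60 FPKM on day 0 and at 4.31 to 7.69 FPKM on day 3. The 7 T and NK cell markers in the table, led by Cd4, summed to between 39.53 and 46.92 FPKM on day 0 and between 2.02 and 2.31 FPKM on day 3. B cell markers, led by Cd79a, summed to between 4238 and 4673 FPKM on day 0 and between 2200 and 2289 FPKM on day 3. The 4 Y-linked genes, led by Eif2s3y, summed to 112.4 FPKM in Mct1f/fMb1Cre replicate 1 and to 2.23 to 3.55 FPKM in the other 3 day 0 libraries, against 73.98 to 95.04 FPKM in the 5 day 3 libraries. The Y-linked levels, and with them the apparent sex of the mice, differed between the days, and in Mb1Cre libraries sex and activation cannot be told apart. In bulk RNA, fewer cells of a type and less RNA per cell cannot be told apart either.

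On day 0 the members lay between 1.15 and 107.85 FPKM. In Mb1Cre libraries the order of mean levels was Ccnd3, Cdk4, Cdk2, Ccnd2, Ccna2, Ccne1, Ccnb2, Cdk6, Ccnb1 and Ccne2, where Ccnd3 overlapped Cdk4 and Cdk2 overlapped Ccnd2. Among the 10 members, these libraries were thus richest in transcripts for the G1 subunits cyclin D3 and Cdk4 and poorest in cyclin E2. In Mct1f/fMb1Cre libraries the order was Ccnd3, Cdk4, Ccnd2, Cdk2, Ccna2, Ccnb2, Ccne1, Cdk6, Ccnb1 and Ccne2, and the overlapping neighbours were Ccnd2 with Cdk2, Ccna2 with Ccnb2, and Ccnb2 with Ccne1. On day 3 both genotypes had the order Cdk4, Ccnd2, Ccnd3, Ccna2, Ccnb1, Ccnb2, Cdk2, Ccne1, Ccne2 and Cdk6, with no overlap between neighbours. Cdk6, eighth on day 0, was the lowest of the 10 on day 3. The 10 members together summed to between 274.2 and 292.9 FPKM on day 0 and to between 652.5 and 678.2 FPKM on day 3.

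**Figure D1:**
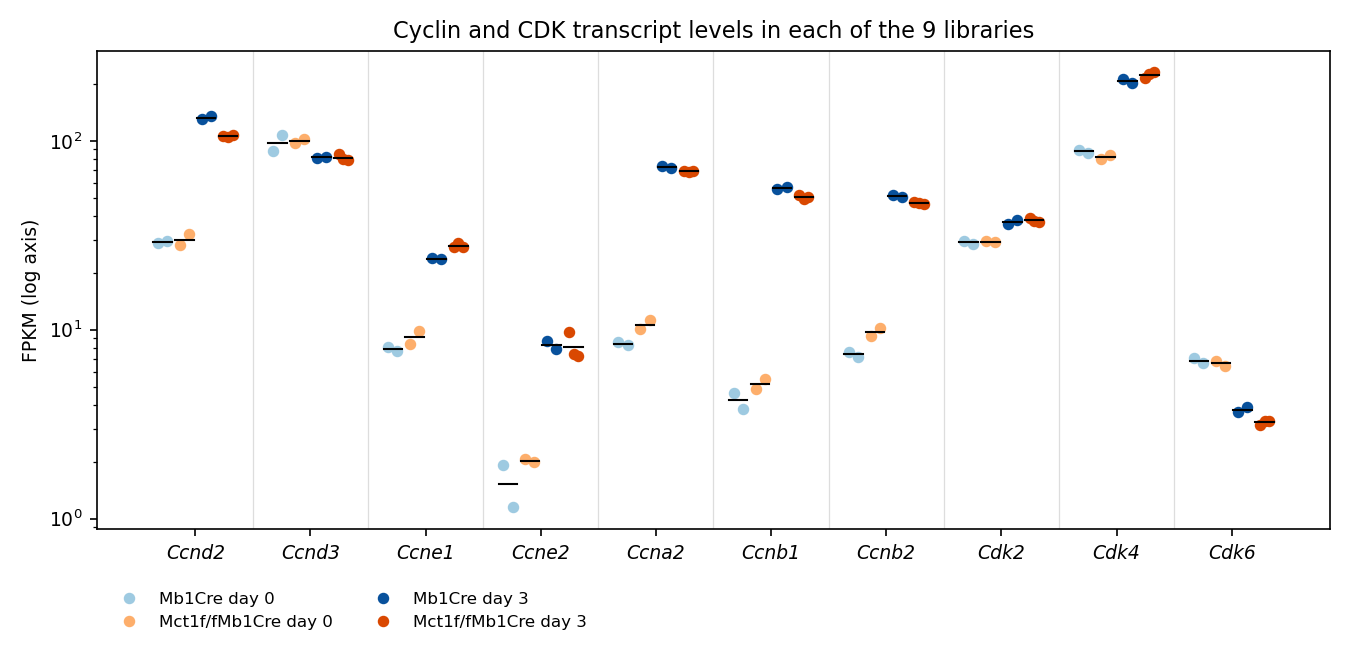
FPKM of the 10 members on a log axis, 1 point per library and a black line at each group mean (n = 2, 2, 2 and 3 libraries). Ccna2, Ccnb1 and Ccnb2 moved from 3.81 to 11.23 FPKM on day 0 to 46.24 to 73.88 FPKM on day 3, and Cdk6 moved down from 6.45 to 7.09 FPKM to 3.14 to 3.88 FPKM.

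The first question was how activation changed the cyclins and CDKs in control cells. Of the 10 members, 7 rose from day 0 to day 3 in Mb1Cre cells (Ccnd2, Ccne1, Ccne2, Ccna2, Ccnb1, Ccnb2 and Cdk4), Cdk6 fell, and Ccnd3 and Cdk2 were not called. Calls needed an adjusted p under 0.05 (limma, Benjamini-Hochberg over 10823 tested genes) together with a log2 change of more than 0.5 either way. By this rule 24.8% of all tested genes were called higher and 33.0% lower on day 3 in Mb1Cre. In Mct1f/fMb1Cre cells the same 7 members rose and Cdk6 fell, where 23.4% of all tested genes were called higher and 33.2% lower. The median log2 fold change of the members was 1.68 in Mb1Cre and 1.55 in Mct1f/fMb1Cre, and over all tested genes it was -0.12 and -0.14. Scaling to the same total moved the median of all genes to -0.31 and -0.30, and median-of-ratios scaling moved it to 0.06 in both genotypes. The share of called genes that were higher on day 3 was 42.9% and 41.4% as deposited, 32.0% and 31.7% with the same total, and 55.4% and 54.9% with median-of-ratios scaling. The 7 members rose under every scaling tried in both genotypes.

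Among the D-type cyclins, activation exchanged the leading member. Ccnd2 (chr6:127125162-127152188) was at 28.69 and 29.33 FPKM on day 0 and at 130.91 and 134.50 FPKM on day 3 in Mb1Cre, a log2 fold change of 2.16 (SE 0.0561, adjusted p = 3.85e-11). In Mct1f/fMb1Cre it was at 28.07 and 31.96 FPKM on day 0 and at 106.65, 104.58 and 106.79 FPKM on day 3, a log2 fold change of 1.79 (SE 0.0512, adjusted p = 6.81e-11). No day 3 library came near the day 0 levels in either genotype. Ccnd3 (chr17:47505051-47599689) was at 87.99 and 107.85 FPKM on day 0 and at 81.41 and 82.27 FPKM on day 3 in Mb1Cre. The Mct1f/fMb1Cre libraries were at 96.91 and 102.82 FPKM on day 0 and at 84.73, 80.01 and 79.51 FPKM on day 3. The days did not overlap, but the log2 fold changes of -0.25 (SE 0.0787, adjusted p = 0.0121) and -0.29 (SE 0.0719, adjusted p = 0.00276) stayed under the fold limit. With median-of-ratios scaling they were -0.04 (adjusted p = 0.704) and -0.07 (adjusted p = 0.412), with the same total -0.45 and -0.47. The value in Mb1Cre rested in part on replicate 2 of day 0, without which it was -0.10 (adjusted p = 0.128).

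Ccnd1, the D-type cyclin outside the members, was at 14.23 to 15.31 FPKM in the 4 day 0 libraries and at 0.17 to 0.26 FPKM in the 5 day 3 libraries. It fell by 3.72 on the log2 scale in Mb1Cre (SE 0.0813, adjusted p = 1.25e-11) and had a log2 fold change of -3.68 in Mct1f/fMb1Cre (SE 0.0742, adjusted p = 7.45e-12). The myeloid, erythroid, T and NK markers fell between the same libraries, and their part in the Ccnd1 values was not tested. Of the FPKM of the 3 D-type cyclins, Ccnd3 held 68.9% ± 2.66 (SD, n = 2) on day 0 and 38.1% ± 0.269 (SD, n = 2) on day 3 in Mb1Cre. Ccnd2 held 20.5% ± 1.85 (SD, n = 2) and then 61.8% ± 0.297 (SD, n = 2), and Ccnd1 10.6% ± 0.813 (SD, n = 2) and then 0.122% and 0.0784% in the 2 libraries. In Mct1f/fMb1Cre the share of Ccnd2 went from 20.7% ± 1.01 (SD, n = 2) to 56.5% ± 0.793 (SD, n = 3).

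**Figure D2:**
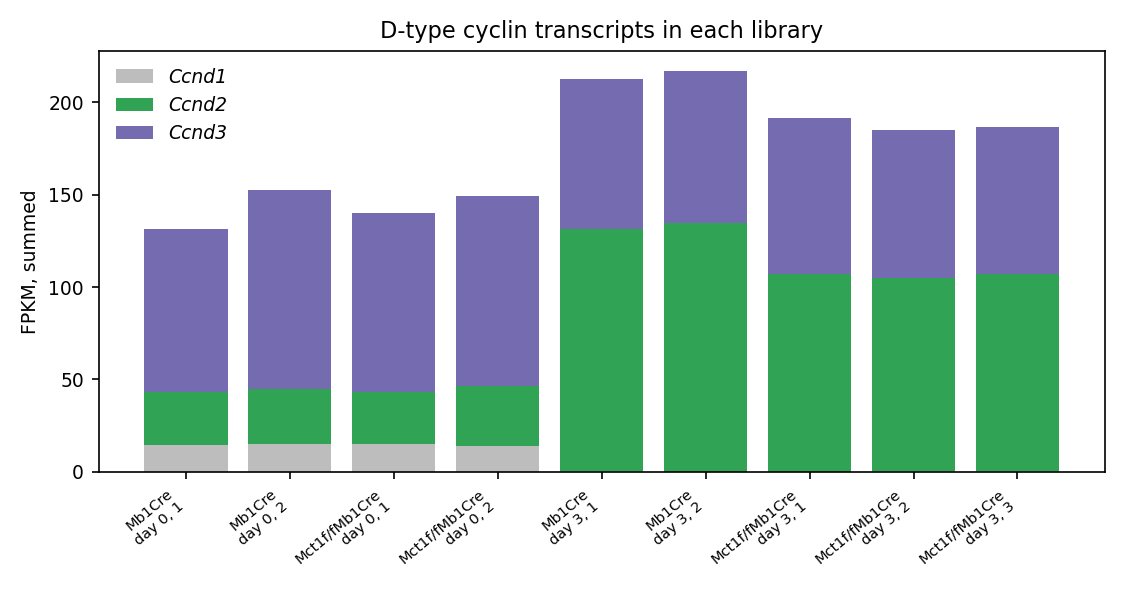
Summed FPKM of Ccnd1, Ccnd2 and Ccnd3 in each of the 9 libraries, from 0, with the replicate number after the day. Ccnd3 is the largest part on day 0 and Ccnd2 on day 3, when the stacks reach 212.6 and 216.9 FPKM in Mb1Cre and 184.8 to 191.6 FPKM in Mct1f/fMb1Cre.

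The E-type cyclins both rose. Ccne1 (chr7:38097984-38107490) was at 8.15 and 7.75 FPKM on day 0 and at 23.84 and 23.54 FPKM on day 3 in Mb1Cre, a log2 fold change of 1.46 (SE 0.0704, adjusted p = 4.56e-09). Its level in Mct1f/fMb1Cre was at 8.36 and 9.88 FPKM and then at 27.32, 28.93 and 27.45 FPKM, a log2 fold change of 1.52 (SE 0.0643, adjusted p = 1.49e-09). Every day 3 library was above every day 0 library. Ccne2 (chr4:11190433-11204779) was the lowest member on day 0, at 1.92 and 1.15 FPKM in Mb1Cre and 2.06 and 1.99 FPKM in Mct1f/fMb1Cre. On day 3 it was at 8.69 and 7.88 FPKM in Mb1Cre and at 9.68, 7.45 and 7.27 FPKM in Mct1f/fMb1Cre. Its log2 fold changes of 1.89 (SE 0.149, adjusted p = 3.16e-07) and 1.58 (SE 0.136, adjusted p = 6.16e-07) had the largest errors of the 10 members, and the pseudocount of 1 understates them at these levels. Cyclin E1 transcripts remained the larger part, with Ccne2 holding 16.0% of the E-type FPKM on day 0 and 25.9% on day 3 in Mb1Cre.

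Cyclin A2 and the B-type cyclins, which act from S phase to mitosis, rose most. Ccna2 (chr3:36564865-36573038) was at 8.62 and 8.27 FPKM on day 0 and at 73.88 and 71.96 FPKM on day 3 in Mb1Cre, a log2 fold change of 2.97 (SE 0.0537, adjusted p = 4.43e-12). In Mct1f/fMb1Cre it was at 10.07 and 11.23 FPKM and then at 68.99, 68.71 and 69.13 FPKM, a log2 fold change of 2.59 (SE 0.0490, adjusted p = 5.05e-12). The day 0 levels lay higher and the day 3 levels lower in Mct1f/fMb1Cre libraries, without overlap on either day. Over all tested genes, 38.4% on day 0 and 47.1% on day 3 did not overlap between the genotypes.

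Ccnb1 (chr13:100778739-100786486) was at 4.64 and 3.81 FPKM on day 0 and at 55.80 and 56.92 FPKM on day 3 in Mb1Cre, with the largest log2 fold change of the members, 3.46 (SE 0.0753, adjusted p = 1.22e-11). The Mct1f/fMb1Cre libraries were at 4.88 and 5.47 FPKM and then at 51.66, 49.25 and 50.12 FPKM, a log2 fold change of 3.06 (SE 0.0687, adjusted p = 1.28e-11). RefSeq lists related-sequence loci among the synonyms of Ccnb1, and how shared reads were assigned is not given in the sources used here, so its level is less certain. Ccnb2 (chr9:70407689-70421554) was at 7.61 and 7.21 FPKM on day 0 and at 51.39 and 50.29 FPKM on day 3 in Mb1Cre, a log2 fold change of 2.62 (SE 0.0544, adjusted p = 1.01e-11). Its level in Mct1f/fMb1Cre was at 9.23 and 10.16 FPKM and then at 47.67, 46.87 and 46.24 FPKM, a log2 fold change of 2.17 (SE 0.0497, adjusted p = 1.48e-11). Ccnb1 held 36.2% of the B-type FPKM on day 0 and 52.6% on day 3 in Mb1Cre, so the pair exchanged their order.

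The 3 kinases went different ways. Cdk4 (chr10:127063535-127067288) was at 89.87 and 86.45 FPKM on day 0 and at 212.35 and 201.34 FPKM on day 3 in Mb1Cre, a log2 fold change of 1.22 (SE 0.0490, adjusted p = 1.03e-09). In Mct1f/fMb1Cre it was at 80.08 and 83.93 FPKM and then at 215.55, 225.69 and 229.93 FPKM, a log2 fold change of 1.44 (SE 0.0447, adjusted p = 1.27e-10). Its partner in function Cdk6 (chr5:3341004-3531008) moved the opposite way, from 7.09 and 6.63 FPKM to 3.66 and 3.88 FPKM in Mb1Cre (log2 fold change -0.72, SE 0.0702, adjusted p = 1.98e-06). In Mct1f/fMb1Cre it went from 6.84 and 6.45 FPKM to 3.14, 3.29 and 3.28 FPKM (log2 fold change -0.85, SE 0.0641, adjusted p = 1.95e-07). With a pseudocount of 5 the Cdk6 changes were -0.44 and -0.50, under the fold limit, and with quantile normalization the change in Mb1Cre was -0.47. Cdk4 held 92.8% of the FPKM of Cdk4 and Cdk6 on day 0 and 98.2% on day 3 in Mb1Cre.

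Cdk2 (chr10:128697938-128705051), the partner of cyclins E and A, was at 29.62 and 28.44 FPKM on day 0 and at 36.27 and 38.32 FPKM on day 3 in Mb1Cre. The Mct1f/fMb1Cre libraries were at 29.32 and 29.03 FPKM and then at 39.23, 37.71 and 37.26 FPKM. The days did not overlap, and the log2 fold changes of 0.35 (SE 0.0485, adjusted p = 3.86e-05) and 0.37 (SE 0.0442, adjusted p = 1.04e-05) stayed under the fold limit. With median-of-ratios scaling they were 0.56 and 0.59 and were called. RefSeq places Pmel over the whole 7114 bases of Cdk2, and the strand of the reads is not given in the sources used here, so reads of the 2 genes may not have been told apart. The same holds for the protein-coding genes Ints8 over 5622 bases of Ccne2, Exosc9 over 863 bases of Ccna2, Bysl over 359 bases of Ccnd3 and Tspan31 over 2 bases of Cdk4. It also holds for long noncoding RNA genes, Gm29868 (19218 bases) and Gm36470 (2556 bases) at Cdk6, Gm41590 (7217 bases) at Ccnd3, 9330179D12Rik (2800 bases) at Ccnd2 and A630034I12Rik (798 bases) at Ccne2.

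**Figure D3:**
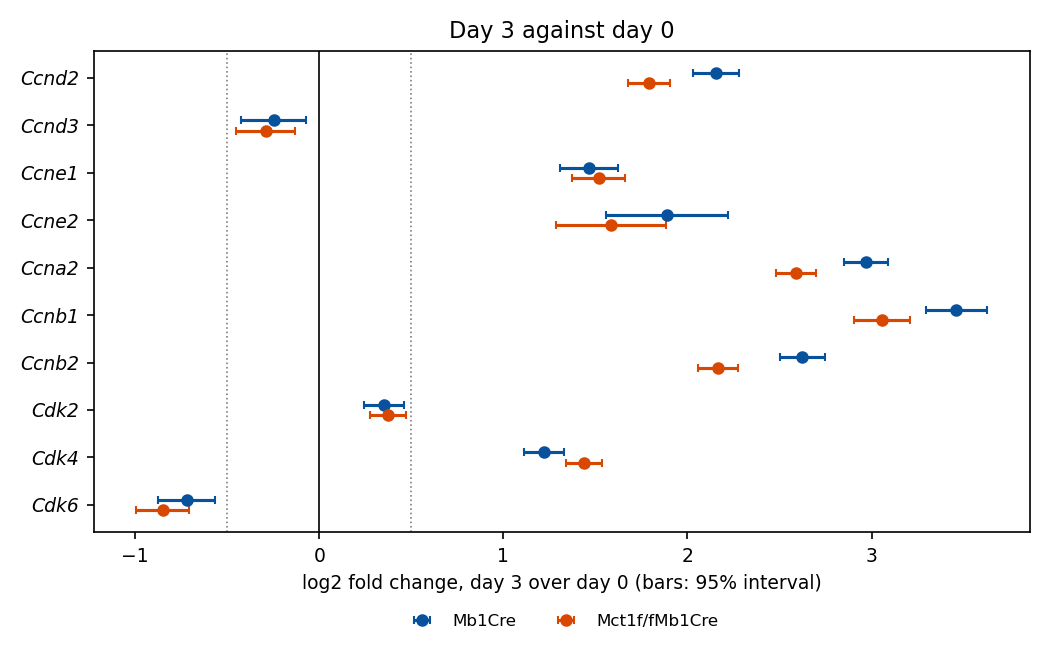
Log2 fold change on the log2(FPKM + 1) scale from day 0 to day 3 for each member, with 95% intervals from the fit, in Mb1Cre and Mct1f/fMb1Cre cells. Dotted lines mark the fold limit of 0.5, which 7 members pass upwards, from 1.22 for Cdk4 to 3.46 for Ccnb1 in Mb1Cre, and Cdk6 passes downwards.

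Leaving out each library in turn gave 8 called members in both genotypes. Where this left a group with 1 library, that library was assumed to vary like those of the other groups. The part of sex in the activation values was not tested.

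Genes that act with the members were counted in lists. Of the other cell cycle cyclins and CDKs, 4 of 6 tested rose in both genotypes and 1, Ccnd1, fell. Cdk1, the kinase that pairs with A- and B-type cyclins, went from 2.11 and 1.86 FPKM to 22.23 and 22.02 FPKM in Mb1Cre, with log2 fold changes of 2.96 there and 2.63 in Mct1f/fMb1Cre. Ccnf, an F-box protein that marks substrates for degradation in G2, rose by 2.13 and 1.98 on the log2 scale. The median of these 6 genes was 1.03 and 0.89.

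Of 12 cyclins and CDKs that act in transcription, 1 rose, 7 fell and 4 were not called in Mb1Cre, and 1 rose, 6 fell and 5 were not called in Mct1f/fMb1Cre. Their medians were -0.59 and -0.55, and over all tested genes 33.0% and 33.2% were called lower. Cdk19, a kinase of the Mediator complex, had log2 fold changes of -1.28 and -1.10, and Ccnt2, a cyclin of the elongation factor P-TEFb, -1.21 and -1.13. The gene that rose was Cdk8, the paralogue of Cdk19, at 0.70 and 0.53. With median-of-ratios scaling 2 rose and 4 fell in Mb1Cre, and 2 rose and 5 fell in Mct1f/fMb1Cre. With the same total 1 rose and 7 fell in Mb1Cre. In Mct1f/fMb1Cre 0 rose and 7 fell with the same total, so Cdk8 was not called there.

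CDK inhibitors and pocket proteins divided. Of 9 tested, 5 rose and 4 fell in Mb1Cre, and 4 rose and 3 fell in Mct1f/fMb1Cre, with medians of 0.53 and 0.44. Cdkn2a, which encodes p16 and p19ARF, went from 0.45 and 0.12 FPKM to 14.91 and 14.15 FPKM in Mb1Cre (log2 fold change 3.61), and Cdkn1a, the p21 gene, from 4.88 and 3.56 FPKM to 35.64 and 34.36 FPKM (log2 fold change 2.80). In Mct1f/fMb1Cre these changes were 2.30 and 1.92. Cdkn1b, the p27 gene, was the most abundant of the list, and it went from 70.75 and 77.12 FPKM to 31.71 and 32.10 FPKM in Mb1Cre (log2 fold change -1.19, and -1.47 in Mct1f/fMb1Cre). The retinoblastoma gene Rb1 fell by 0.80 on the log2 scale in Mb1Cre and by 0.77 in Mct1f/fMb1Cre, and its relative Rbl2 fell by 0.74 and 0.87.

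Among E2F, MuvB and FOXM1 factors, which activate or repress the transcription of S phase and mitotic genes, 8 of 16 rose and 2 fell in Mb1Cre, and 8 rose and 1 fell in Mct1f/fMb1Cre (medians 0.53 and 0.52). With the same total 6 rose and 3 fell in Mb1Cre, and 7 rose and 4 fell in Mct1f/fMb1Cre. With median-of-ratios scaling 10 rose and 2 fell, and 10 rose and 1 fell. With quantile normalization 9 rose and 1 fell, and 9 rose and 0 fell. The values below are as deposited. Mybl2 had log2 fold changes of 4.0 and 3.74, and the E2F partner Tfdp1 2.45 and 2.38. Tfdp2 fell in both, by 0.83 and 0.84, and E2f2 fell in Mb1Cre, by 0.86, and had a log2 fold change of -0.45 in Mct1f/fMb1Cre, under the fold limit. Of 7 CDK phosphatases, kinases and CKS subunits, 6 rose and none fell in either genotype (medians 1.43 and 1.40), led by Cdc25c, an activator of Cdk1, at 2.79 and 2.45, and Cks1b, a CDK subunit, at 2.73 and 2.52. Of 11 genes listed as parts of the ubiquitin ligases that degrade cyclins, 7 rose in Mb1Cre and 6 in Mct1f/fMb1Cre and none fell (medians 0.80 and 0.87). The genes that rose included Fbxo5, an inhibitor of the anaphase-promoting complex, at 1.27 and 1.19. Ube2c and Cdc20, which work with the anaphase-promoting complex, had 3.02 and 2.81 in Mb1Cre and 2.79 and 2.68 in Mct1f/fMb1Cre. All 15 proliferation markers rose in both genotypes (medians 2.45 and 2.10), with Birc5 at 3.37 and 2.92, Top2a at 3.16 and 2.78, and Plk1 at 3.07 and 2.94.

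Markers of other cells fell in the same comparison. All 9 myeloid markers fell in both genotypes, with S100a9 at -6.26 and -7.74 and S100a8 at -5.99 and -7.04, as did all 6 tested T and NK markers, led by Cd4 at -3.87 and -3.89 and Ncr1 at -2.81 and -2.38. Of 5 tested erythroid markers, 4 fell in Mb1Cre and 5 in Mct1f/fMb1Cre, with Hba-a1 at -5.27 and -6.18 and Hbb-bs at -5.42 and -5.81. Of 7 B cell markers, 6 fell in each genotype, with Cd79a at -1.53 and -1.64 and Ebf1 at -1.46 and -1.55. All 4 Y-linked genes were called higher on day 3 in Mb1Cre, with Eif2s3y at 5.61 and Ddx3y at 3.88, and none in Mct1f/fMb1Cre. Their part in the cyclin and CDK values was not tested.

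The second question was whether the cyclins and CDKs of activated cells differed between the genotypes. No member was called between the genotypes on day 3, where 2.42% of all tested genes were called. Without the fold limit 2 of the 10 passed an adjusted p of 0.05, against 15.2% of all tested genes. In 7 of the 10 the 2 Mb1Cre and 3 Mct1f/fMb1Cre libraries did not overlap, which held for 47.1% of all tested genes. The median log2 fold change of the members was -0.06 and that of all tested genes -0.01.

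Ccnd2 had the largest difference, at 130.91 and 134.50 FPKM in Mb1Cre against 106.65, 104.58 and 106.79 FPKM in Mct1f/fMb1Cre. All 3 Mct1f/fMb1Cre libraries lay below both controls, at 79.9% of the control mean, and the log2 fold change was -0.32 (95% interval -0.43 to -0.21, SE 0.0512, adjusted p = 0.00208). Leaving out 1 library at a time gave -0.34 to -0.30. With Ccnd3 at 81.41 and 82.27 FPKM against 84.73, 80.01 and 79.51 FPKM (log2 fold change -0.01, 95% interval -0.17 to 0.15), the summed D-type cyclins were 214.8 ± 3.08 FPKM (SD, n = 2) in Mb1Cre and 187.6 ± 3.49 FPKM (SD, n = 3) in Mct1f/fMb1Cre.

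Ccne1 was higher in Mct1f/fMb1Cre, at 27.32, 28.93 and 27.45 FPKM against 23.84 and 23.54 FPKM, or 117.8% of the control mean. The log2 fold change was 0.23 (95% interval 0.08 to 0.37, SE 0.0643, adjusted p = 0.0382). Leaving out 1 of the 5 day 3 libraries raised its adjusted p to between 0.0642 and 0.174 each time. Ccne2, whose replicates spread most, was at 8.69 and 7.88 FPKM against 9.68, 7.45 and 7.27 FPKM, and the genotypes overlapped (log2 fold change -0.03, 95% interval -0.33 to 0.27).

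The other members differed by less. Ccna2, Ccnb1 and Ccnb2 were at 94.5%, 89.3% and 92.3% of the control mean with no overlap, and their adjusted p-values were 0.323, 0.151 and 0.159. The 95% intervals of their log2 fold changes were -0.19 to 0.03, -0.31 to -0.01 and -0.22 to 0.00. Cdk4 had a log2 fold change of 0.11 (95% interval 0.01 to 0.21, adjusted p = 0.120), Cdk6 one of -0.17 (-0.31 to -0.03, adjusted p = 0.101), both without overlap, and Cdk2 one of 0.03 (-0.07 to 0.13, adjusted p = 0.734), with overlap.

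The partner lists held few calls between the genotypes on day 3. Cdkn1a was at 35.64 and 34.36 FPKM in Mb1Cre and at 17.50, 17.88 and 18.63 FPKM in Mct1f/fMb1Cre (log2 fold change -0.92, SE 0.0916, adjusted p = 1.25e-04). Cdkn2a was at 14.91 and 14.15 FPKM against 4.21, 5.99 and 4.14 FPKM (log2 fold change -1.44, SE 0.143, adjusted p = 1.25e-04). These inhibitors were the 2 called of 9 tested in their list, whose median was -0.17, and their libraries did not overlap between the genotypes. Without the fold limit Cdkn1b (-0.28, adjusted p = 0.0251) and Rbl2 (-0.17, adjusted p = 0.0406) of this list passed as well (limma). Of 15 proliferation markers 1 was called, Tyms, the thymidylate synthase gene, at 32.29 and 30.26 FPKM against 20.83, 20.67 and 20.60 FPKM (log2 fold change -0.57, SE 0.0573, adjusted p = 1.30e-04), while Mki67 was at 68.90 and 76.25 FPKM against 76.24, 71.90 and 70.46 FPKM. The median of the proliferation list was -0.01. None of the 6 other cell cycle cyclins and CDKs, 12 transcriptional cyclins and CDKs, 16 E2F, MuvB and FOXM1 factors, 7 phosphatases, kinases and CKS subunits or 11 ubiquitin ligase parts was called, and without the fold limit 3 of these passed (limma, adjusted p under 0.05), namely E2f2 at 0.39, E2f5 at -0.34 and Cdc25b at -0.46. Among 9 myeloid markers, 5 had a log2 fold change above 0 and 4 had one below 0 (median 0.27). Of these markers Lyz2 (0.71) and Adgre1 (0.68) were called higher in Mct1f/fMb1Cre, with Lyz2 at 11.48 and 10.04 FPKM against 16.78, 17.60 and 20.36 FPKM. Their part in the differences was not tested.

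**Figure D4:**
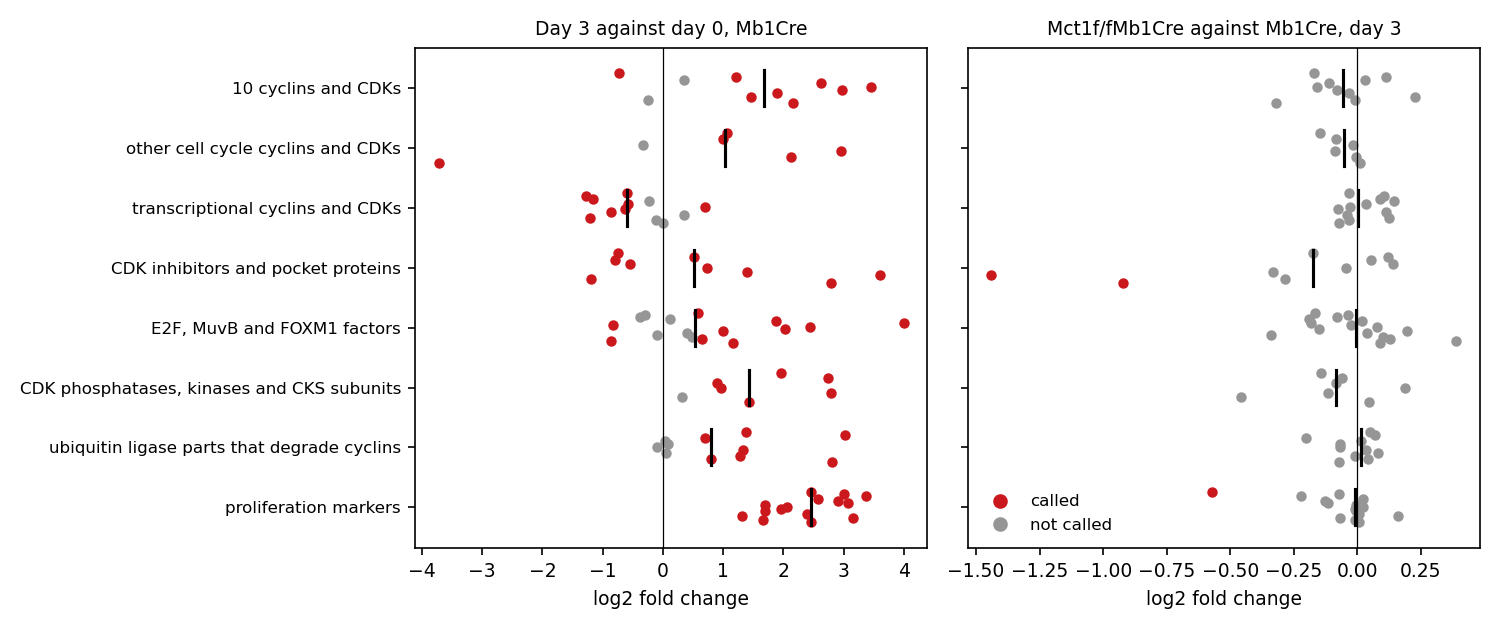
Log2 fold change of each tested gene of 8 lists, with activation in Mb1Cre on the left and the genotypes on day 3 on the right, on different axes. Red points were called and black lines are list medians, which go from -0.59 to 2.45 on the left and from -0.17 to 0.01 on the right, where Cdkn2a, Cdkn1a and Tyms are the called points.

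Naïve cells were compared in the same way. No member was called between the day 0 libraries labelled Mb1Cre and Mct1f/fMb1Cre, where 0.277% of all tested genes were called. Without the fold limit 2 of 10 passed, Ccnb2 and Ccna2, against 0.416% of all tested genes. In 6 of 10 members the genotypes did not overlap (38.4% over all tested genes), and the median log2 fold change was 0.11 against 0.00 for all tested genes.

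Ccnb2 was at 7.61 and 7.21 FPKM in Mb1Cre and at 9.23 and 10.16 FPKM in Mct1f/fMb1Cre, a log2 fold change of 0.35 (95% interval 0.23 to 0.47, SE 0.0544, adjusted p = 0.0255). Ccna2 was at 8.62 and 8.27 FPKM against 10.07 and 11.23 FPKM, a log2 fold change of 0.30 (95% interval 0.18 to 0.42, SE 0.0537, adjusted p = 0.0460). Ccnb1, at 4.64 and 3.81 FPKM against 4.88 and 5.47 FPKM, had a log2 fold change of 0.24 (95% interval 0.08 to 0.41, adjusted p = 0.257). Both Mct1f/fMb1Cre libraries lay above both controls in these 3 genes. Without Mct1f/fMb1Cre replicate 1, which leaves 1 library in its group and takes the spread from the other groups, Ccnb2 was at 0.41 (adjusted p = 0.0198) and Ccna2 at 0.37 (adjusted p = 0.0207). Neither kept an adjusted p under 0.05 when any of the other 8 libraries was left out, with Ccnb2 between 0.0501 and 0.0833 and Ccna2 between 0.0847 and 0.132.

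Among the other members, Ccne1 had a log2 fold change of 0.17 (95% interval 0.02 to 0.33, adjusted p = 0.385), Ccne2 of 0.27 (-0.06 to 0.60, adjusted p = 0.525) and Cdk4 of -0.10 (-0.21 to 0.01, adjusted p = 0.457), all without overlap. Ccnd2, Ccnd3, Cdk2 and Cdk6 overlapped, with log2 fold changes from -0.04 to 0.04. Of the 15 proliferation markers none was called on day 0 (limma), 1, Top2a, passed without the fold limit (0.31, adjusted p = 0.0333) and 14 had a log2 fold change above 0. The one gene of the other lists that was called was Hba-a1, an erythroid marker, at 0.64 (adjusted p = 0.0293). With quantile normalization 0 erythroid markers were called. All 9 myeloid markers had a log2 fold change above 0 and none was called. All 5 tested erythroid markers were above 0 as well, and 5 of 6 tested T and NK markers were below 0. The myeloid, erythroid and Y-linked sums were highest in Mct1f/fMb1Cre replicate 1 among the day 0 libraries, with erythroid sums of 234.1 FPKM there against 148.0, 127.6 and 148.2 FPKM in the other 3. Their part in the values of Ccna2 and Ccnb2 was not tested.

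Whether activation changed the members differently in the 2 genotypes was tested with the interaction of genotype and day. No member was called, where 3.23% of all tested genes were called. Without the fold limit 4 of 10 passed, against 9.42% of all tested genes, and all 4 rose less in Mct1f/fMb1Cre cells. The interaction shares its libraries with the comparisons above, so its values are no separate evidence. On day 0 the Y-linked genes summed to 3.29 and 2.23 FPKM in Mb1Cre and to 112.4 and 3.55 FPKM in Mct1f/fMb1Cre libraries. The part of sex in the interaction values was not tested. Ccnb2 had the largest difference, with rises of 2.62 in Mb1Cre and 2.17 in Mct1f/fMb1Cre, an interaction of -0.46 (95% interval -0.62 to -0.30, SE 0.0737, adjusted p = 0.00502). Ccnb1 followed at -0.40 (SE 0.102, adjusted p = 0.0349), Ccna2 at -0.38 (SE 0.0727, adjusted p = 0.0105) and Ccnd2 at -0.37 (SE 0.0760, adjusted p = 0.0154). The adjusted p of Ccnb1 was under 0.05 in 6 of 17 alternatives and reached 0.107, and 2 members passed when either Mb1Cre library of day 3 was left out.

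These 4 differences were composed differently. For Ccnd2 the genotypes differed by 0.04 on day 0 and -0.32 on day 3. For Ccnb2, Ccna2 and Ccnb1 they differed by 0.35, 0.30 and 0.24 on day 0 and by -0.11, -0.08 and -0.16 on day 3, so that the day 0 difference was the larger part of the interaction for all 3 of these genes. Cdk4 had an interaction of 0.22 (95% interval 0.07 to 0.36, adjusted p = 0.0691), and Ccnd3, Ccne1, Ccne2, Cdk2 and Cdk6 lay between -0.30 and 0.05 with adjusted p-values of 0.380 or more.

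**Figure D5:**
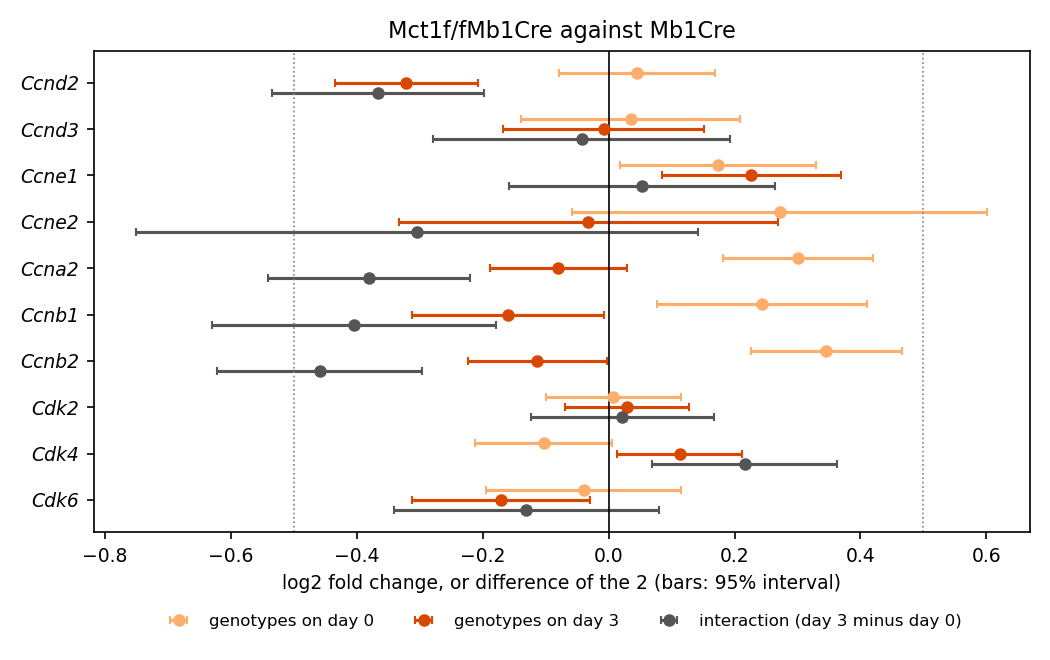
Log2 fold change of Mct1f/fMb1Cre over Mb1Cre on day 0 and on day 3, and the interaction (day 3 minus day 0), with 95% intervals from the fit. Dotted lines mark the fold limit of 0.5, which no point passes. At an adjusted p under 0.05 (limma), Ccnd2 (-0.32) and Ccne1 (0.23) differ on day 3, and Ccna2 (0.30) and Ccnb2 (0.35) on day 0. Ccne1, Ccna2 and Ccnb2 did not keep this under every alternative.

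Of the partner genes, Cdkn1a (-0.87), Cdkn2a (-1.30), Tyms (-0.78) and Aurka, a mitotic kinase (-0.61), were called in the interaction, all with a smaller rise in Mct1f/fMb1Cre. Slc16a1 was called at -1.06. Of the marker genes Lyz2 (0.57), Adgre1 (0.51) and Hba-a1 (-0.91) were called. Of the 9 myeloid markers, 4 lay above 0 and 5 below. Only 1 of them was called with median-of-ratios scaling and 0 with quantile normalization. The median of the members was -0.22 and that of all tested genes -0.02, and the proliferation list had a median of -0.12 with 13 of 15 below 0, of which 6 passed without the fold limit.

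Over the 9 libraries the members' patterns followed the day. Ccna2 was most like Cdk1 among all tested genes outside the members (Pearson's r = 0.9997 of log2 values over 9 libraries), Ccnb1 most like Melk (0.9997), Ccnb2 most like Shcbp1 (0.9995) and Ccne2 most like Gas2l3 (0.9972). Ccnd2 was most like Rabggtb (0.9992), Cdk4 like Tbrg4 (0.9994), Ccne1 like Naa15 (0.9981) and Cdk2 like Cbx5 (0.9968). Cdk6 was most like Nedd4 (0.9990), which was lower on day 3, and Ccnd3 most like Myzap (0.9539). All 9 points share the split between the days, so that r exceeded 0.95 for at least 2294 genes in 9 of the 10 members and for 3 genes in Ccnd3.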

How the data were processed

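The authors sequenced RNA of 9 B cell libraries on a BGISEQ platform, and the submitters' processing notes name Bowtie2 and GRCm38/mm10. The counter, the annotation and the aligner's version are not given in the sources used here. The deposited values are FPKM, 1 per gene and library with 2 decimals. They are already scaled to transcript length and mapped fragments, so no count model was used and the precision rests on 2 or 3 libraries per group.

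The values were transformed as log2(FPKM + 1), with no added scaling, which understates the fold changes of low genes. A mean of 1 FPKM or more across all libraries left 10823 genes, which were fitted in limma 3.58.1 (R 4.3.3) with a mean per group. Variances were moderated by empirical Bayes along the intensity trend, and p-values were adjusted by Benjamini and Hochberg's method. All 10 members passed the filter. Calls required an adjusted p under 0.05 together with a log2 change of more than 0.5 either way. Figures were drawn with matplotlib 3.10.9 in Python 3.11.15.

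The members and gene lists were chosen with earlier results of these data known. All 10 members were named in every comparison, and from each list the 2 called genes that moved most up and most down on activation, every called gene between the genotypes and in the interaction, Slc16a1 and the most abundant marker of each type. Plk1, Fbxo5, Mki67, E2f2, E2f5, Cdc25b and Top2a were added after their values were seen where they fell outside this rule. The most alike gene of each member was the one with the highest Pearson's r. Alternatives were pseudocounts of 0.1 and 5, no filter or a mean of at least 5 FPKM, 3 scalings (same total, median of ratios, quantile), only the 2 groups compared, the replicate number as a block, fold limits of 1 (log2) and of none, and leaving out single libraries. Ccna1, Ccnb3, Cdk3 and Trac were not analysed here. Coordinates, synonyms and promoter windows come from RefSeq (GRCm38.p6), matched by gene ID or symbol.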

Additional observations from a re-analysis of the deposited data

Results flagged for a closer look

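For 4 members the change with activation differed between the genotypes by the test of the interaction itself (limma, adjusted p under 0.05), although no difference passed the fold limit. The values, as log2 fold change in Mct1f/fMb1Cre minus that in Mb1Cre, were -0.46 for Ccnb2, -0.40 for Ccnb1, -0.38 for Ccna2 and -0.37 for Ccnd2. Beside them 9.42% of all tested genes and 6 of 15 proliferation markers passed. The apparent sex of the mice differed among the day 0 libraries, and its part in these values was not tested. Ccnb2 kept an adjusted p under 0.05 in 17 of 17 alternatives, Ccna2 in 16, Ccnd2 in 15 and Ccnb1 in 6.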

How the results depend on the processing

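In activation, 8 members were called under each library left out and between 7 and 10 under all alternatives. Over the 50 member results, the alternatives other than the changed fold limits gave 885 values. Of these, 857 had the direction and call of the reported value, 3 lost and 4 gained a call. Another 21 changed sign, none of them called.

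With pseudocounts of 0.1 and 5, 421 and 120 genes were called between the genotypes on day 3 in place of 262, and 156 in place of 350 in the interaction with a pseudocount of 5. With a log2 limit of 1 the counts were 54 on day 3, 16 on day 0, 56 in the interaction, 3191 for activation in Mb1Cre and 2994 in Mct1f/fMb1Cre, in place of 262, 30, 350, 6258 and 6120. With no fold limit they were 1650 on day 3, 1020 in the interaction and 9258 for activation in Mct1f/fMb1Cre, and 2, 2 and 4 members were called on day 3, on day 0 and in the interaction. On day 0, 10 genes were called with no filter and 2 with only the 2 groups compared, and between 22 and 101 with 1 library left out.

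Members at an adjusted p under 0.05 on day 3 numbered 1 with no filter, 1 with the replicate block, 3 with quantile normalization or only the 2 groups compared, and 1 to 2 with 1 library left out, in place of 2. On day 0 they numbered 0 with a pseudocount of 5, no filter, only the 2 groups compared or the replicate block, 1 with the same total or quantile normalization, and 0 to 2 with 1 library left out. In the interaction they numbered 2 with no filter, in place of 4, and 2 to 4 with 1 library left out, with 2 when either Mb1Cre library of day 3 was missing. Without Mb1Cre replicate 1 or Mct1f/fMb1Cre replicate 1 of day 0, 1 member was called in the interaction, so the range was 0 to 1. The cause of these shifts was not tested.

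Values near 0 changed sign. On day 3, Ccnd3 was at 0.0042 with the same total, 0.010 with median-of-ratios scaling and 0.022 with quantile normalization. With the replicate block, Ccnd3 was at 0.0086 and Ccne2 at 0.034. Only Mct1f/fMb1Cre day 3 has a replicate 3, so the block in effect sets that library aside. Leaving it out gave the same values for these genes. With 1 library left out, the genotype values on day 3 ranged from -0.037 to 0.0086 for Ccnd3, from -0.15 to 0.034 for Ccne2 and from -0.0097 to 0.068 for Cdk2. On day 0, Cdk2 was at -0.0044 with the same total, and with 1 library left out the ranges were -0.021 to 0.036 for Cdk2, -0.11 to 0.18 for Ccnd3, -0.082 to 0.0024 for Cdk6 and -0.046 to 0.14 for Ccnd2. In the interaction they were -0.19 to 0.10 for Ccnd3, -0.017 to 0.060 for Cdk2 and -0.055 to 0.16 for Ccne1.

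The same-numbered libraries of different groups deviated from their group means with r between -0.122 and 0.0867. In a group of 2 libraries the deviations mirror each other, so these values cannot show whether same-numbered libraries shared a mouse or a litter. The replicate block gave 262 calls on day 3, 27 on day 0 and 274 in the interaction. With the numbers of the 2 day 0 Mb1Cre libraries crossed, an alternative chosen after seeing the data, the block gave 6264 calls for activation in Mb1Cre, 8 of them members. Differences smaller than the intervals given could not be seen with 2 or 3 libraries per group, and without read counts the depth limits of low genes such as Ccne2 are unknown.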
